A study of Mus musculus with 30 samples.

Results

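Chromatin bound by total RNA polymerase II was compared between NOS1+ N1E115 cells, a mouse neuroblastoma line, cultured for 3 days at 4% O2 (hypoxia, per the labels) and at 20% O2 (normoxia). The members are the 4 libraries immunoprecipitated with an antibody to POLR2, 2 at 4% O2 and 2 at 20% O2, of 30 libraries in all. They were taken by their antibody and O2 labels and not by any measured value. Both groups carry the NOS1+ label, and the labels do not say that the libraries of a level came from separate cultures, so each p-value reflects library-to-library spread that could be technical alone. Replicate 1 of both levels was sequenced on 1 flow cell (lane 7) and replicate 2 of both levels on another (lane 6), per the file headers, so each replicate number is a sequencing round that holds 1 library of each level. The deposited files list islands, which are runs of 200 bp windows enriched over input, each with its number of reads. Only reads inside islands are in these lists, so total depth is unknown.

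RNA polymerase II transcribes all protein-coding genes. It is recruited to promoters, often pauses shortly after the start, and is released into the gene body for elongation, so islands at a start and islands that run through a body report different stages of the cycle. The antibody here recognises the enzyme as a whole, while the antibodies named POLR2S5 and POLR2S2 in the labels recognise forms of its tail that are phosphorylated at serine 5, typical of early transcription, or at serine 2, typical of elongation. When oxygen is low, prolyl hydroxylases no longer mark the HIF alpha subunits for destruction, and HIF binds a short motif near genes of glucose uptake, glycolysis, mitophagy, collagen hydroxylation and its own feedback.

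The POLR2 lists held 19918 and 18494 islands at 4% O2, against 11172 and 23262 at 20% O2 (replicates 1 and 2 in this order throughout). The 20% O2 library of round 1 stood apart as the sparsest: islands held 5933802 and 10173255 reads over 135 and 183 Mb at 4% O2, against 2057835 and 8598930 reads over 59.5 and 174 Mb at 20% O2. That library alone lacked an island in 6046 of the 23912 regions made by merging the islands of the 4 libraries, which is 25.3% of them. Results that rest on it are given with the values of round 2 beside them. Start windows of 19 of 22 neuroblast and sympathetic marker genes lay in an island in at least 1 library and 11 in all 4, among them Phox2a, Hand2 and Mycn, where 57.7% and 36.1% of all genes did so. Start islands in some library were seen for 0 of 9 endothelial, 5 of 12 macrophage, 3 of 11 fibroblast, 2 of 8 astrocyte and 5 of 11 oligodendrocyte and Schwann cell markers. The start of Nos1, the neuronal nitric oxide synthase gene that the cells are labelled for, lay in no island of any of the 4 libraries.

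Islands were longer at 4% O2 than at 20% O2 in both rounds, by an amount that stayed within the spread between libraries. In libraries made from bulk cells, more cells with polymerase at a place and more polymerase per cell cannot be told apart. The median island measured 4.4 and 5.8 kb at 4% O2, against 3.8 and 4.8 kb at 20% O2. Islands of at least 10 kb made up 18.2% and 29.0% of the 4% O2 lists and 11.3% and 19.3% of the 20% O2 lists, or 23.6% ± 7.64 and 15.3% ± 5.62 (SD, n = 2 each; exact permutation test, two-sided, p = 0.667). These long islands held 49.9% and 67.4% of all covered bases at 4% O2, against 36.1% and 52.3% at 20% O2. Reads were also denser, with a median of 41.4 and 50.5 reads per kb of island at 4% O2 and 35.6 and 45.5 at 20% O2 (p = 0.667 by the same exact test). The smallest p that this exact test can give for 2 libraries against 2 is 0.333. The number of islands did not keep 1 order: round 1 had 1.78 times as many at 4% O2 and round 2 had 0.795 times as many. Start windows, 1 kb to each side of an annotated start, met 49.6% and 51.8% of the islands at 4% O2 and 62.8% and 45.2% at 20% O2, and these islands held 69.8% and 77.9% of the island reads at 4% O2 and 74.5% and 70.2% at 20% O2.

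**Figure D1:**
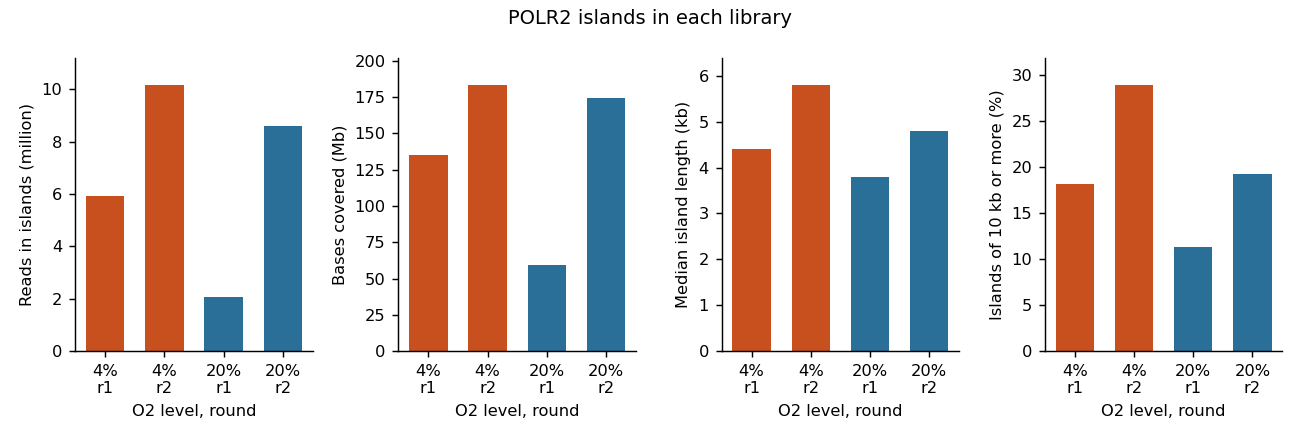
Reads in islands, bases covered (Mb), median island length (kb) and share of islands of at least 10 kb (percent), 1 bar for each POLR2 library, with 4% O2 in orange and 20% O2 in blue and r1 and r2 marking the rounds. Each measure is higher at 4% O2 in both rounds, as in the share of long islands (18.2% and 29.0% at 4% O2, 11.3% and 19.3% at 20% O2), and the 20% O2 library of round 1 is the lowest bar in every panel.

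Each of 13672 protein-coding genes with an island in any library was then scored by the share of its length inside islands. The median share was 18.4% and 28.8% at 4% O2, against 5.12% and 24.2% at 20% O2. At least 90% of the body was covered in 2475 and 3709 genes at 4% O2 and in 1297 and 2812 genes at 20% O2. Start islands were called for 11464 and 12084 genes at 4% O2 and for 8172 and 12237 genes at 20% O2, of 21883 genes in the annotation. No part of the body was covered in 1115 and 620 genes at 4% O2 and in 4315 and 378 genes at 20% O2, and the median within-gene difference was 5.67 percentage points in round 1 and 0 in round 2. Within-round differences of at least 25 percentage points toward 4% O2 in both rounds were met by 698 of the 13672 genes, or 5.11%, and toward 20% O2 by 37 genes, or 0.271%. Body coverage is not scaled between libraries, and the 4% O2 library held more island reads and covered more bases in both rounds. Each round alone gave 2841 (round 1) and 1662 (round 2) genes with more of the body covered at 4% O2, and 252 and 633 with less. The 698 genes had a median length of 14.3 kb, against 23.1 kb over all 13672, and the 37 had a median of 5.71 kb. Start islands were present in all 4 libraries for 410 of the 698, and 275 lacked one in the sparse 20% O2 library.

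Read counts could be compared in the 7811 regions with an island in all 4 libraries. edgeR's quasi-likelihood test with Benjamini-Hochberg adjustment called 0 regions, or 0%, as changed, with 174 at an unadjusted p under 0.05. DESeq2 called 1 higher and 0 lower, with 215 at an unadjusted p under 0.05. With the sequencing round as a block, edgeR called 2 regions, or 0.0256%. After scaling, 2253 regions (28.8%) were higher at 4% O2 in both rounds, 2570 (32.9%) were lower in both rounds and 2988 went opposite ways. The within-round log2 ratios had an SD of 0.66 in round 1 and 0.42 in round 2.

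The region called higher by the block fit lies over Macrod1, which encodes an ADP-ribose hydrolase, and Flrt1, a cell adhesion gene nested in it (chr19:7147801-7161400, mm10). It held 378 and 577 reads at 4% O2, against 33 and 118 reads at 20% O2. The groups did not overlap in these counts, which the fit had used, and the share of such regions among the 7811 is not given. The log2 ratio of the region was 2.23 ± 0.26 (SE) with an adjusted p of 0.0278 in edgeR with the block, and DESeq2 gave an adjusted p of 0.00256. The island there was 9.8 and 13.6 kb long at 4% O2 and 1 and 3.6 kb long at 20% O2, and the reads per kb differed by a log2 ratio of only 0.13. The POLR2S5 libraries, unscaled, held 500 and 1900 reads there at 4% O2 and 33 and 413 at 20% O2. The region called lower covers the histone genes H1f2, H3c3 and H2bc3 and is described with the other histone genes.

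**Figure D2:**
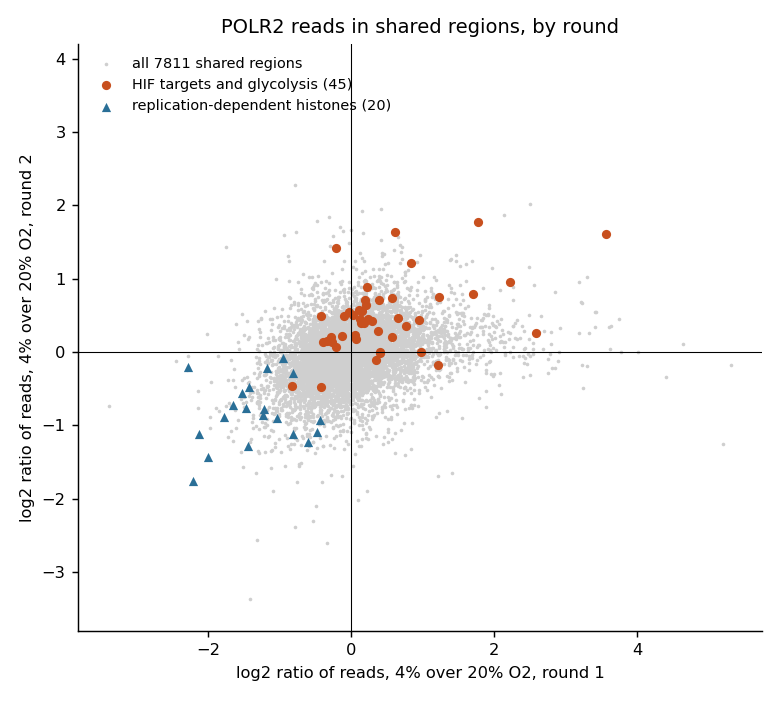
Log2 ratio of scaled POLR2 reads, 4% O2 over 20% O2, in round 1 (x axis) and round 2 (y axis), with each of the 7811 regions called in all 4 libraries as a grey point, HIF and glycolysis regions as orange circles and histone regions as blue triangles. The cloud is wider along round 1 (SD 0.66) than along round 2 (SD 0.42), all 20 histone regions lie below 0 in both rounds, and 30 of 45 HIF and glycolysis regions lie above 0 in both.

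Among the gene lists, HIF targets and glycolysis had the highest share of genes whose polymerase coverage reached farther along the body at 4% O2 in both rounds. Of 50 listed genes 49 had an island and 12, or 24.5%, met the 25-point rule toward 4% O2, against the 5.11% of all genes, while 0 met it toward 20% O2. The share for the list was 42.9% in round 1 alone and 34.7% in round 2 alone, against 20.8% and 12.2% of all genes. In a single round other lists were higher: polymerase II subunits had 53.8% and immediate early genes 47.6% in round 1, and cholesterol genes 36% and chromatin enzymes 34.8% in round 2. In the 45 shared regions that meet a list member, 30 (66.7%) were higher at 4% O2 in both rounds and 2 (4.44%) were lower in both, and the median log2 ratio was 0.34 (0.23 in round 1, 0.44 in round 2), against -0.03 over all 7811 regions. Per kb of island the list's median was 0.07, so the difference in reads went with a difference in island length. None of these regions passed edgeR without the block.

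By the smaller of the differences in both rounds, the largest of the list were at 2 mitophagy receptor genes and a glycolytic enzyme gene. Bnip3l, a mitophagy receptor, had 94.9% and 95.8% of its body in islands at 4% O2, against 12.9% and 7.94% at 20% O2. Its relative Bnip3, which also recruits autophagosomes to mitochondria, had 63.6% and 100% at 4% O2 and 0% and 38.1% at 20% O2. Gpi1, the glycolytic glucose phosphate isomerase, was covered over 100% and 100% at 4% O2 and over 30.1% and 14.9% at 20% O2. For Bnip3l, Bnip3 and Gpi1, which the rule had selected, the levels did not overlap in any library, and the share of such genes among all is not given.

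Glucose transporter and hexokinase genes of the list did not all differ alike. Slc2a1, the widely expressed glucose transporter, was covered over 29.3% and 100% at 4% O2, against 2.99% and 14.9% at 20% O2. Hk2, an inducible hexokinase that traps glucose in the cell, had 48.6% and 42.2% at 4% O2 and 6.99% and 7.39% at 20% O2. The housekeeping hexokinase Hk1 had 28.6% and 70.4% at 4% O2 and 0% and 30.6% at 20% O2, so its lower 4% O2 library lay below its higher 20% O2 library. Slc2a1 and Hk2, selected by the rule, did not overlap between levels, and the share of such genes among all is not given. Slc2a3, the neuronal glucose transporter, did not meet the rule, with 54.1% and 52.0% at 4% O2 and 0% and 40.4% at 20% O2, and the log2 ratio of its region with Foxj2 was 1.22 in round 1 and -0.17 in round 2. The reads of the Slc2a1 region numbered 450 and 1722 at 4% O2 and 65 and 418 at 20% O2, and those of the Hk2 region 624 and 1210 at 4% O2 and 173 and 431 at 20% O2.

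Other members that met the rule act outside glucose entry. Aldoc, a brain-enriched aldolase, was covered over 100% and 100% at 4% O2, against 3.84% and 57.5% at 20% O2. P4ha2, a collagen prolyl hydroxylase subunit, had 95.9% and 100% at 4% O2 and 11.3% and 63.4% at 20% O2. Fam162a, a hypoxia-induced mitochondrial protein gene, had 74.7% and 100% at 4% O2 and 5.63% and 38.7% at 20% O2. Egln1 encodes the main oxygen sensor that hydroxylates HIF alpha; it had 38.5% and 95.1% at 4% O2 and 6.03% and 23.8% at 20% O2. Mxi1, a MYC antagonist, had 43.0% and 100% at 4% O2 and 8.18% and 46.5% at 20% O2, and Anxa2, a membrane-binding annexin gene, 32.8% and 100% at 4% O2 and 0% and 28.1% at 20% O2. Among these genes, which the rule had selected, Aldoc, P4ha2, Fam162a, Egln1 and Anxa2 did not overlap between levels. The share of all genes without such overlap is not given. Mxi1 in round 1 at 4% O2 lay below its round 2 value at 20% O2. Of the 12 genes 6 also differed by at least 25 points in both rounds with both phosphorylated forms: Slc2a1, Hk2, Bnip3, Bnip3l, Egln1 and Mxi1. Over all genes 42 of the 698 (6.02%) did so, and this comparison was chosen after seeing the data.

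**Figure D3:**
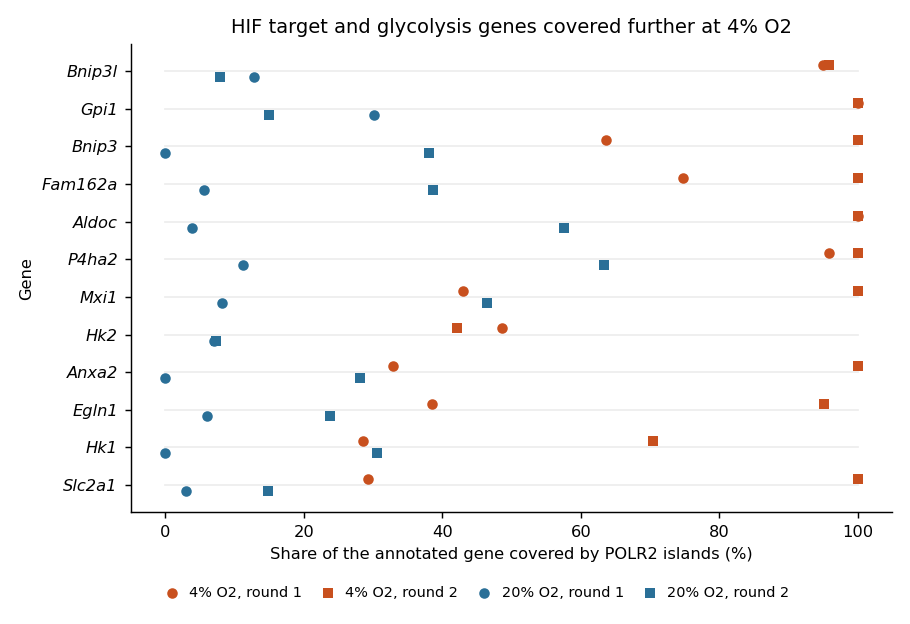
Share of the annotated gene inside POLR2 islands (percent, x axis) for the 12 HIF target and glycolysis genes that met the 25-point rule, one row for each gene, with 4% O2 in orange, 20% O2 in blue, circles for round 1 and squares for round 2. Within each round the orange point lies right of the blue one, which the rule fixes, as for Bnip3l (94.9% and 95.8% at 4% O2, 12.9% and 7.94% at 20% O2).

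For several enzymes the body could not report a difference, because Aldoa, Tpi1, Gapdh, Eno1, Vegfa, Bhlhe40, Mif and Ddit4 were covered over 100% in all 4 libraries. Reads were therefore compared in 1103 regions of matched island length, a choice made after seeing the data. In these the longest summed island length among the 4 libraries was less than 1.5 times the shortest. With the block and scaling computed within these regions, edgeR called 8 higher, or 0.725%, and 23 lower, or 2.09%. The region of Pkm, the pyruvate kinase gene, together with Parp6 and Gramd2 (chr9:59647201-59681600), held 1772 and 2597 reads at 4% O2 and 770 and 1315 at 20% O2, a log2 ratio of 0.69 ± 0.14 (SE; edgeR adjusted p = 0.00085). Ldha, which turns pyruvate into lactate (chr7:46830001-46857800), held 1841 and 2544 reads at 4% O2 and 775 and 1537 at 20% O2, a log2 ratio of 0.58 ± 0.14 (edgeR adjusted p = 0.0048). The region of Aldoa, the main aldolase, which also spans Mapk3, Gdpd3, Ypel3, Tbx6 and Ppp4c, had a log2 ratio of 0.53 ± 0.13 (edgeR adjusted p = 0.0048), and the region of the lactate exporter Slc16a3 and its neighbour Csnk1d one of 0.50 ± 0.13 (edgeR adjusted p = 0.0083). The regions of Pkm, Ldha, Aldoa and Slc16a3 were 4 of the 10 list regions of matched length. Those of Pgam1 (0.60, edgeR adjusted p = 0.082), Eno1 (0.44, 0.104), Tpi1 (0.37, 0.082), Bhlhe40 (0.35, 0.289), Vegfa (0.16, 0.61) and Stc2 (-0.40, 0.31) did not pass. The other 4 regions called higher cover Thra and Nr1d1, Usp22 and Tnfrsf13b, Cic and Pafah1b3, and a cluster from Cend1 to Tspan4.

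These 8 calls turned on the scaling. Scaling within the length-matched regions raises every log2 ratio by 0.38 in round 1 and 0.09 in round 2 over the factors of all shared regions. With the latter factors edgeR with the block called 0 regions higher and 45 lower, the median over the 1103 regions was -0.24, and the adjusted p was 0.421 for Pkm and 0.572 for Ldha. Their log2 ratios were then 0.45 and 0.34. The phosphorylated forms, from separate libraries that share the inputs, gave in the Ldha region, unscaled, 3125 and 2983 POLR2S5 reads at 4% O2 against 1327 and 2019 at 20% O2, and 2980 and 4003 POLR2S2 reads at 4% O2 against 707 and 1139 at 20% O2. At Pkm they gave 3788 and 4117 POLR2S5 reads at 4% O2 and 1584 and 2006 at 20% O2, and 4989 and 10779 POLR2S2 reads at 4% O2 and 1427 and 1903 at 20% O2. Unscaled reads of both forms were also higher at 4% O2 in both rounds in the regions called higher outside the list. The Thra region held 9009 and 10319 POLR2S2 reads at 4% O2 and 3122 and 4191 at 20% O2. Read totals of these libraries are not given, so the counts are not set against library size.

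Some list members did not differ or went the other way. Stc2, a secreted glycoprotein gene, held 421 and 603 reads at 4% O2 and 369 and 685 at 20% O2, with a log2 ratio of -0.66 ± 0.34 that did not pass edgeR. Vegfa, the vascular growth factor gene, held 1835 and 2073 reads at 4% O2 and 1057 and 1639 at 20% O2, with a log2 ratio of -0.11 ± 0.40. Among HIF subunits and partners 0 of 10 genes with an island met the rule in either direction, with a median log2 ratio of -0.04 over 7 regions. Hif1a itself had islands only in round 2, over 93.8% of its body at 4% O2 and 90.8% at 20% O2.

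Promoters of 4 HIF list members whose polymerase values stand out above are printed so that the HIF motif can be seen beside them. The sequences are RefSeq's for GRCm38.p6, 250 bases before to 50 bases after the annotated start, read 5′ to 3′ on the gene's strand, and capitals mark ACGTG or GCGTG and their reverse complements CACGT and CACGC, searched on both strands, where the palindrome CACGTG counts as a match on each strand.
Bnip3 chr7:138909457-138909756 (-): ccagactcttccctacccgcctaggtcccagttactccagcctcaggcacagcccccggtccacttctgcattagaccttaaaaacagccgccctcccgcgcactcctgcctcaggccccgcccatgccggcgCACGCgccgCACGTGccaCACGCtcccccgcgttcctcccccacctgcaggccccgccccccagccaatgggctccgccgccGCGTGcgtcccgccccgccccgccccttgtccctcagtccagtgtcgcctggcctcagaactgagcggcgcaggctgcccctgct
Slc2a1 chr4:119108495-119108794 (+): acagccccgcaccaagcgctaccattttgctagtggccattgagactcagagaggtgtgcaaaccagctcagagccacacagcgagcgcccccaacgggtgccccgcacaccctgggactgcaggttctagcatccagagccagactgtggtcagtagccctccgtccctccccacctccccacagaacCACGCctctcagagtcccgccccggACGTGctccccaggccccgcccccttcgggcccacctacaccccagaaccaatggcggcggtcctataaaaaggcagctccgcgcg
Ldha chr7:46845554-46845853 (+): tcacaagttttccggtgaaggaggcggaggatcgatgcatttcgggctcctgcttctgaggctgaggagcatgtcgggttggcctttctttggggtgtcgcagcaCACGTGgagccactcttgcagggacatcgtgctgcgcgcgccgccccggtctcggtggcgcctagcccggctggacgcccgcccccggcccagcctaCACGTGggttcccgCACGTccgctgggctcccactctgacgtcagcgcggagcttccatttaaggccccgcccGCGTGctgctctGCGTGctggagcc
P4ha2 chr11:54100674-54100973 (+): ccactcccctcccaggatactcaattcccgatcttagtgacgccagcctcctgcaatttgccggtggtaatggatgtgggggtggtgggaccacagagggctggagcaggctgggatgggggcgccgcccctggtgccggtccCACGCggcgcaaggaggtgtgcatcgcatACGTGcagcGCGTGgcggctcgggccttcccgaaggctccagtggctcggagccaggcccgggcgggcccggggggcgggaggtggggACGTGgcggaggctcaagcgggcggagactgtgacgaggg
By the first promoter listed for a gene, the motif was in 34 of 43 promoters of the list (79.1%) and in 8599 of all 17491 (49.2%). A match describes letters and not binding. By the first promoter, Gpi1, Hk1 and Mxi1, which also met the 25-point rule, had no match, and no window of Bnip3l was searched. Pkm and Aldoa, whose regions were called higher with scaling within matched lengths, had no match in their first promoter either. Later listed promoters of Hk1, Mxi1, Pkm and Aldoa held matches.

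Replication-dependent histone genes, which encode the core and linker histones made in S phase, were lower in reads at 4% O2. All 20 of their shared regions were lower in both rounds (100%, against 32.9% of all regions). The median log2 ratio was -1.11 (-1.33 in round 1, -0.87 in round 2), and no region passed edgeR without the block. Per kb of island the median was -0.43, with 17 regions below 0 and 3 above (the regions of H1f2, H4c8 and H4c18). Without the sparse 20% O2 library the median was -0.25 with 1 region above 0, a value on another scaling that was not paired by round. Many of these genes are near-identical copies, and how reads that map to several copies were handled is not given in the sources at hand, so values of single histone genes are uncertain. Cell cycle and replication genes, given beside them because histone genes are transcribed in S phase, had a median log2 ratio of 0.04 over 23 regions, with 6 higher in both rounds and 7 lower in both, and their part in the histone result was not tested.

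The region of H1f2, H3c3 and H2bc3 (chr13:23737401-23748000) held 176 and 146 reads at 4% O2, against 406 and 409 at 20% O2. Its log2 ratio was -1.99 ± 0.26 (SE) with an adjusted p of 0.0391 in edgeR with the block. The levels did not overlap in these counts, which the fit had used, and the share of such regions among the 7811 is not given. Islands there measured 3.4 and 2.2 kb at 4% O2 and 8.4 and 10 kb at 20% O2, and the log2 ratio per kb was 0.14, so the direction held for reads and length but not for density. POLR2S5 reads there, unscaled, numbered 273 and 108 at 4% O2 and 540 and 372 at 20% O2, and POLR2S2 reads 105 and 100 at 4% O2 and 249 and 149 at 20% O2. All 3 antibodies thus had fewer reads in the region at 4% O2 in both rounds.

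Among regions of matched length, edgeR with the block called 4 of 6 histone regions lower under both scalings. Of all 1103 regions it called 2.09% lower with scaling within them and 45 regions lower with the factors of all shared regions. The latter factors lower every log2 ratio of the same counts (median -0.24 over the 1103 regions). Calls and adjusted p-values under them are therefore not separate evidence. The regions that did not pass hold H3c14 (log2 ratio -0.45, edgeR adjusted p = 0.145) and H3c13 (-0.28, edgeR adjusted p = 0.435). H4c1, H3c1 and H1f1 shared a region with 225 and 174 reads at 4% O2, against 352 and 238 at 20% O2 (log2 ratio -0.97 ± 0.21; edgeR adjusted p = 0.00085, and 5.7e-06 with the factors of all shared regions). H2bc13, H2ac13, H3c10 and H2bc14 shared one with 425 and 481 reads at 4% O2 and 609 and 585 at 20% O2 (log2 ratio -0.81 ± 0.21; edgeR adjusted p = 0.0074 and 0.0063). H4c11 held 235 and 195 reads at 4% O2 and 275 and 291 at 20% O2 (log2 ratio -0.81 ± 0.20; edgeR adjusted p = 0.0063 and 5.2e-05). H4c12, H2ac15 and H2bc15 shared a region with 473 and 437 reads at 4% O2 and 544 and 617 at 20% O2 (log2 ratio -0.75 ± 0.21; edgeR adjusted p = 0.014 and 0.008). In each of these 4 called regions both unscaled counts at 4% O2 lay below both at 20% O2. The fit called them on these same counts, and the share of such regions among the 1103 is not given.

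**Figure D4:**
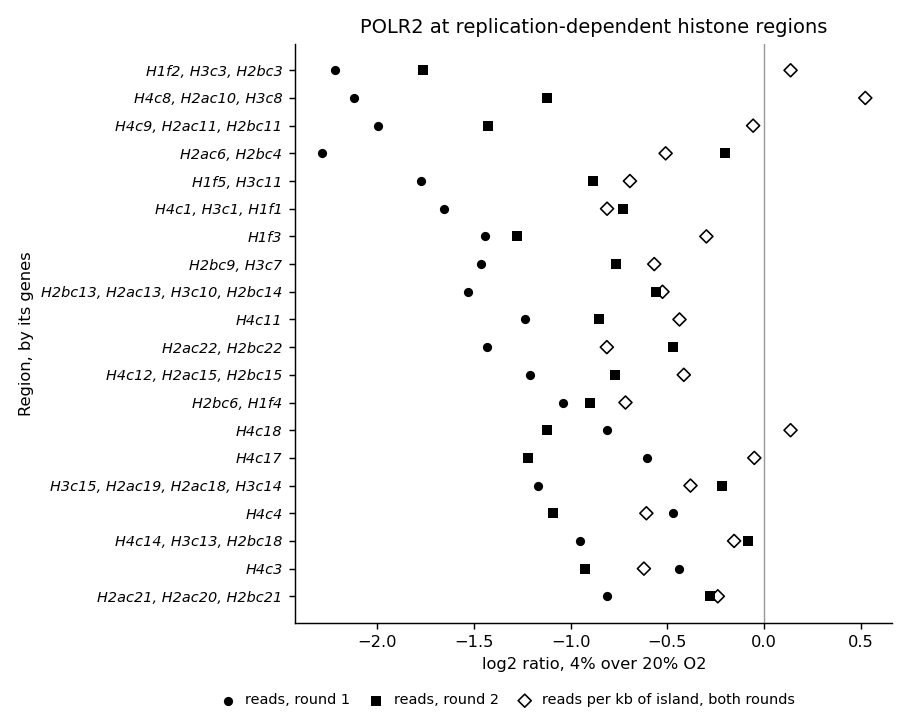
Log2 ratio of POLR2, 4% O2 over 20% O2 (x axis), for the 20 shared regions that meet replication-dependent histone genes, one row for each region, with circles for reads in round 1, squares for reads in round 2 and open diamonds for the fitted ratio of reads per kb of island. All circles and squares lie left of 0, while 3 of the diamonds lie right of 0. The lowest circle is at -2.29 (the H2ac6 and H2bc4 region) and the lowest square at -1.76 (the H1f2, H3c3 and H2bc3 region).

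Gene starts, scored on the same islands as the reads above and so not separate evidence, told the same for part of the family. Of 21883 starts, 68 (0.311%) lay in an island in both 4% O2 libraries and no 20% O2 library, and 29 (0.133%) in both 20% O2 libraries and no 4% O2 library. Of these 29 starts 7 belonged to histone genes, namely H2ac10, H2ac11, H2bc11, H2ac12, H2bc12, H3c3 and H2bc3. H3c3 and H2bc3 lie in the same region, as do H2ac11 and H2bc11. By body coverage 6 of 56 histone genes with an island (10.7%, against 0.271% of all genes) met the rule toward 20% O2. Toward 4% O2 it was met by 2, H2ac18 and H3c14 (3.57%, against 5.11% of all genes). Islands are built of 200 bp windows and the rule takes no account of gene length, so these shares are not compared further.

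Promoters of 2 genes of the H1f2 region are printed with CCAAT, the core of a promoter element common in histone genes, and its reverse complement ATTGG, searched on both strands, in capitals. A match was in 39.0% of all promoters, and 13.5% held at least 2.
H1f2 chr13:23738557-23738856 (+): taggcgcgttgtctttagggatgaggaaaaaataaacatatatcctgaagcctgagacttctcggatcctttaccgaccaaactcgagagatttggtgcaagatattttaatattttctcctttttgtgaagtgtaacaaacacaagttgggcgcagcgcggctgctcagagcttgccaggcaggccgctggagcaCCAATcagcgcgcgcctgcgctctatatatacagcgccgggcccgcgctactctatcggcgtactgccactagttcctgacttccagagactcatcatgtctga
H3c3 chr13:23745472-23745771 (-): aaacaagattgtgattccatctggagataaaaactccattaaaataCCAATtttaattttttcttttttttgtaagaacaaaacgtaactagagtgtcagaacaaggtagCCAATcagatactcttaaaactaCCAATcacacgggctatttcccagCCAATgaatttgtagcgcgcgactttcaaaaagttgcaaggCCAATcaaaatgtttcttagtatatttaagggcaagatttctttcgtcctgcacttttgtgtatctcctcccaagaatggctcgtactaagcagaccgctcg
The H3c3 window held 5 matches and the H1f2 window 1.

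Other gene families gave smaller or less regular differences. Cytosolic ribosomal protein genes, whose promoters are active in almost all cells, had start islands in all 4 libraries for 77 of 77 genes, and 0 bodies met the rule. Their 76 regions had a median log2 ratio of -0.29, made of -0.55 in round 1 and 0.04 in round 2, and of 0.09 without the sparse 20% O2 library, so no direction is given for them. Cholesterol synthesis and uptake genes had 3 of 25 bodies more covered at 4% O2 (12%, against 5.11% of all genes): Pmvk, Cyp51 and Idi1. Pmvk, the phosphomevalonate kinase, had 100% and 95.8% at 4% O2 and 0% and 41.9% at 20% O2. Cyp51, the lanosterol demethylase, had 55.9% and 96.7% at 4% O2 and 15.1% and 69.2% at 20% O2, and Idi1, an isoprenoid isomerase, 26.4% and 70.6% at 4% O2 and 0% and 44.1% at 20% O2. At Cyp51 and Idi1 the 4% O2 library of round 1 lay below the 20% O2 library of round 2. Their 16 regions had a median of 0.39 (9 higher in both rounds and 1 lower in both), which was -0.08 when the 4% O2 library of round 2 was left out.

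Genes of the transcription machinery were also read. Polr2a, which encodes the largest subunit with the phosphorylated tail, was covered over 40.7% and 44.8% at 4% O2, against 50.5% and 80.5% at 20% O2, and did not meet the rule in either direction. Polr2d and Polr2h, smaller subunits, were 2 of 13 subunit genes (15.4%, against 5.11% of all genes) that met it toward 4% O2, Polr2d with 56.4% and 100% at 4% O2 and 8.91% and 45.8% at 20% O2. Of 31 pausing and elongation factor genes 3 (9.68%) met it. Nelfb, a subunit of the complex that holds paused polymerase, had 100% and 100% at 4% O2 and 9.25% and 26.2% at 20% O2. Ctr9, a scaffold of the PAF elongation complex, had 43.2% and 51.2% at 4% O2 and 2.37% and 8.93% at 20% O2. Ccnk, the cyclin partner of serine 2 kinases, had 31.8% and 84.4% at 4% O2 and 3.71% and 54.3% at 20% O2. At Nelfb and Ctr9, which the rule had selected, the levels did not overlap, and the share of such genes among all is not given.

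In the lists that follow, the share of bodies more covered at 4% O2 lay between 0% and 8.70%, on both sides of the 5.11% of all genes, and rests on few genes. It was 4 of 48 oxidative phosphorylation genes (Ndufs3, Cox5a, Cox6a1 and Cox7a2), 2 of 24 splicing factors (Srsf4 and Hnrnpul1), 2 of 23 oxygen-dependent chromatin enzymes and Polycomb genes (Kdm5c and Ezh1), 1 of 21 immediate early genes (Fosb), 1 of 35 cell cycle genes (Cdkn2c) and 1 of 20 neuroblast identity genes (Gata3). It was 0 of 25 unfolded protein response genes and 0 of 24 nitric oxide signalling genes, and none of these lists had a gene that met the rule toward 20% O2. Beside these lists, p53 target and survival genes had 2 of 17 more covered (11.8%), and neuronal structure and synapse genes 1 of 28 (3.57%). Splicing factor regions had a median log2 ratio of -0.19 with 12 of 24 lower in both rounds, while per kb of island the median was 0.15.

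**Figure D5:**
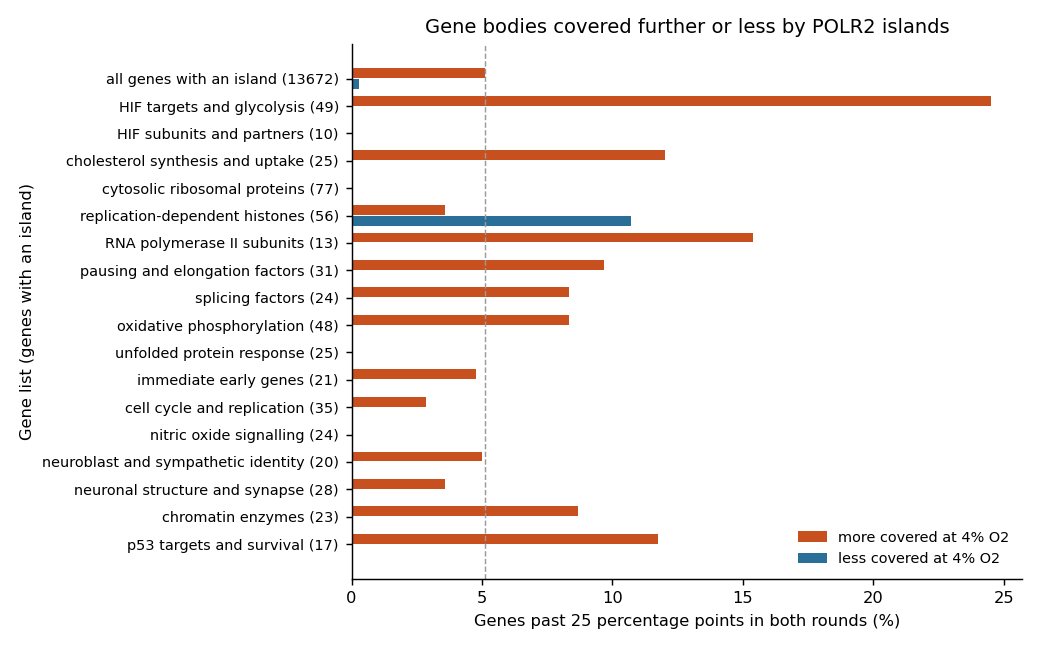
Share of genes (percent, x axis) whose body coverage differed by at least 25 points in both rounds, in orange for more covered at 4% O2 and in blue for less, for all genes and for each gene list, with the number of genes with an island in brackets and a dashed line at the share of all genes (5.11%). The HIF and glycolysis list has the longest orange bar (24.5%), and the histone list is the only list with a blue bar.

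Over all genes of at least 5 kb, the 10 largest body differences toward 4% O2 were in genes that POLR2S5 and POLR2S2 islands covered over at least 88.6% at 4% O2. Szrd1, a gene of little known function, and Blcap, an apoptosis-related gene that hosts the imprinted Nnat, were covered over 100% and 100% at 4% O2 and 0% and 0% at 20% O2. Both were covered over 100% by POLR2S5 and by POLR2S2 islands in all 4 libraries of each. Gnl1, a GTP-binding protein gene, had 100% and 100% at 4% O2, against 8.90% and 17.3% at 20% O2, and Ecel1, a neuronal endopeptidase gene, 100% and 100% at 4% O2, against 17.5% and 14.7% at 20% O2. Bnip3l, Cfap157, Stmn4, Atg16l2, Eif3k and Cybc1 complete the 10, with at least 85.7% covered at 4% O2 and at most 25.4% at 20% O2. In Gnl1 the POLR2S5 share at 20% O2 was 65.7% and 100%, above that of total polymerase. At 20% O2 in round 2 the POLR2S5 share was also at least 92.4% in each of the 10 but Bnip3l (47.5%). In round 1 at 20% O2 it ran from 18.1% (Bnip3l) to 100% (Szrd1 and Blcap). POLR2S2 islands at 20% O2 covered 12.9% (Bnip3l) to 100% in round 1 and 51.6% (Gnl1) to 100% in round 2.

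The 10 largest body differences toward 20% O2 are given next. Rars, the arginyl-tRNA synthetase, was covered over 0% and 47.2% at 4% O2, against 100% and 100% at 20% O2. Eif3l, an initiation factor subunit, had 14.5% and 17.6% at 4% O2 and 57.2% and 100% at 20% O2. Has3, a hyaluronan synthase, had 0% and 46.6% at 4% O2 and 86.1% and 100% at 20% O2. The levels did not overlap at Rars, Eif3l or Has3, which were picked by their difference, and the share of such genes among all is not given. POLR2S2 islands covered 100% of Rars and Has3 in all 4 libraries. The others were Cib1, Jmjd4, Thyn1, Cfb, Smarce1, Yjefn3 and Tma16. Of the 698 genes more covered at 4% O2, 80 (11.5%) also met the rule in POLR2S5 and 128 (18.3%) in POLR2S2, against 2.61% and 7.29% of all genes, and 42 met it in both. Of the 37 genes less covered, 3 (8.11%) also met it in POLR2S5 and 0 in POLR2S2, against 0.702% and 0.322% of all genes.

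Regions with islands at 1 level only were few. Both 4% O2 libraries and no 20% O2 library had an island in 389 regions (1.63% of 23912), and both 20% O2 libraries and no 4% O2 library in 123 (0.514%). A gene start lay in 39 of the 389 (10.03%) and in 28 of the 123 (22.8%), against 41.1% of all regions. Islands of POLR2S5 and of POLR2S2 were both absent from the 20% O2 libraries in 140 of the 389 (35.99%) and from the 4% O2 libraries in 13 of the 123 (10.6%). H3K9ac peaks, a mark of active promoters and enhancers, lay in both 20% O2 libraries in 290 of the 389 regions (74.6%), and in both 4% O2 libraries in 33 of the 123 (26.8%). For these antibodies the shares over all 23912 regions are not given, so neither set is read as particular. The sets also differed in median length, 3.4 kb for the 389 and 6.4 kb for the 123.

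The most read of these regions carried islands of the phosphorylated forms where total polymerase had none. The Szrd1, Fbxo42 and Spata21 region (chr4:141104001-141207800) held 2761 and 6391 POLR2 reads at 4% O2 and 0 and 0 at 20% O2, where 4319 and 6954 POLR2S5 reads and 3290 and 7296 POLR2S2 reads were listed. The Blcap and Nnat region (chr2:157529401-157580000) held 2005 and 3280 POLR2 reads at 4% O2 and 0 and 0 at 20% O2, where POLR2S5 had 1941 and 2674 reads. The reverse case was the region of Brox, Aida, Mia3 and Fam177b (chr1:183274201-183334600), with 0 and 0 POLR2 reads at 4% O2 and 460 and 2584 at 20% O2, while POLR2S5 had 3297 and 6057 reads at 4% O2 and 2548 and 6659 at 20% O2. A region at 0 here is one without a called island, and the reads outside islands are not in the lists.

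Smaller regions of the 4% O2 kind lay over Fam91a1, Cmip, Tmco4, Taf1a, Tspan18, Tns1 and, in a pair of places, Trio, a guanine exchange factor of neurite growth. Cmip, a MAF-inducing protein gene, held 616 and 968 POLR2 reads at 4% O2 and 0 and 0 at 20% O2, with POLR2S5 at 2879 and 3338 reads at 4% O2 and 0 and 1038 at 20% O2, and POLR2S2 at 3142 and 5294 reads at 4% O2 and 78 and 0 at 20% O2. These reads are unscaled, and at Cmip those of all 3 antibodies were higher at 4% O2 in both rounds. The 20% O2 kind lay over Luzp1 and Kdm1a, Wipf3 and Scrn1, Rbms1, Washc5 and Nsmce2, Pdpr, Kpna4, B3gnt2, Zfp638 and Man1c1. Rbms1, an RNA-binding protein gene, held 0 and 0 POLR2 reads at 4% O2 and 102 and 1008 at 20% O2, beside 8459 and 8545 POLR2S2 reads at 4% O2 and 3765 and 7402 at 20% O2, so both levels carried elongating polymerase islands.

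Among regions called in all 4 libraries, most of the 12 highest ratios came from round 1. Around Bnip3 and its neighbour Ppp2r2d the region (chr7:138865401-138913000) held 1192 and 2747 reads at 4% O2 and 50 and 743 at 20% O2, with log2 ratios of 3.56 in round 1 and 1.61 in round 2. Ncoa3, a nuclear receptor coactivator gene, and Sulf2 shared a region with 685 and 1951 reads at 4% O2 and 77 and 442 at 20% O2, and ratios of 2.14 and 1.87. Srebf2, the master regulator of cholesterol genes, was in a region with 2213 and 4091 reads at 4% O2 and 44 and 3139 at 20% O2, and its ratios were 4.64 in round 1 and 0.11 in round 2. The others were the regions of Macrod1, Gss and Acss2, Syn2, Smarcal1, Kremen1, Nr4a1 and Grasp, Psma5 and Sort1, Ralgps1 and Angptl2, and Sh3pxd2a. Of the 12 regions only those of Bnip3, Macrod1, Ncoa3 and Acss2 had a log2 ratio above 1 in both rounds.

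The 12 lowest were spread more evenly over the rounds. Tnrc6c, a microRNA effector gene, held 222 and 55 reads at 4% O2 and 292 and 468 at 20% O2. Slit3, an axon guidance ligand gene, held 625 and 631 at 4% O2 and 1212 and 1068 at 20% O2, with ratios of -1.97 and -1.04. Smarcad1, a chromatin remodeller gene, held 175 and 162 at 4% O2 and 252 and 344 at 20% O2. Rere, a nuclear receptor corepressor gene, held 308 and 746 at 4% O2 and 379 and 3650 at 20% O2, where its island spanned 20.8 and 115.6 kb. At Tnrc6c, Slit3 and Smarcad1, picked by their ratios, the unscaled reads of the levels did not overlap. The share of such regions among the 7811 is not given. The others were the regions of H1f2, H1f5 and H3c11, Rars and Wwc1, 2810021J22Rik and Gm12258, Fbxo48, Usp34 and Xpo1, Fam13c, and Mrpl33 and Rbks. Per kb of island the fitted ratios of Tnrc6c (0.06), Slit3 (0.29) and Rere (0.10) were above 0, while that of Smarcad1 stayed below (-0.43).

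Outside the histone genes, 11 of the 23 length-matched regions called lower met a protein-coding gene, and 4 of these are given here, chosen after their values were seen. Bdnf, the brain-derived neurotrophic factor gene, held 212 and 262 reads at 4% O2 and 282 and 328 at 20% O2, with a log2 ratio of -0.77 ± 0.20 (edgeR with the block, adjusted p = 0.010). Chac1, a glutathione-degrading target of the stress factor ATF4, held 485 and 844 reads at 4% O2 and 622 and 1017 at 20% O2 (-0.71 ± 0.20, edgeR adjusted p = 0.016). Unscaled POLR2S5 reads at Chac1 numbered 792 and 885 at 4% O2, against 1508 and 1333 at 20% O2, and those at Bdnf 231 and 213 at 4% O2, against 372 and 417 at 20% O2. The POLR2S2 reads numbered 772 and 1108 at 4% O2 and 1514 and 2398 at 20% O2 for Chac1, and 0 and 122 at 4% O2 and 0 and 75 at 20% O2 for Bdnf. Gars, the glycyl-tRNA synthetase, held 898 and 1780 reads at 4% O2 and 1188 and 2161 at 20% O2 (-0.74 ± 0.15, edgeR adjusted p = 0.00031), beside 2276 and 2570 POLR2S5 reads at 4% O2 and 2710 and 3811 at 20% O2, and 2895 and 5182 POLR2S2 reads at 4% O2 and 2923 and 4259 at 20% O2. Tnfrsf1b, a TNF receptor gene, held 69 and 130 reads at 4% O2 and 127 and 182 at 20% O2 (-1.05 ± 0.21, edgeR adjusted p = 0.00031). With the factors of all shared regions the edgeR adjusted p was 0.00014 for Bdnf, 0.030 for Chac1, 0.031 for Gars and 5.2e-05 for Tnfrsf1b. Under these factors 21 of the 23 regions were called again. They lower every log2 ratio of the same counts, by 0.38 in round 1 and 0.09 in round 2, so the second call is not separate evidence. The other genes were Hhat, Cr1l, Mppe1, Cryz and Tyw3, Ulk4, Tbl1x and Yipf6, and 8 of the 23 regions met no protein-coding gene. Hhat held 72 and 155 reads at 4% O2 and 173 and 133 at 20% O2. With scaling within matched lengths its log2 ratio was -1.89 in round 1 and 0.04 in round 2, so its call rests on the round with the sparse library.

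Neuroblast identity genes showed no common direction. Hand2, a sympathetic lineage transcription factor gene, lay in a region with 3298 and 2098 reads at 4% O2, against 3020 and 3405 at 20% O2, a log2 ratio of -0.91 that did not pass edgeR. Over the 14 regions of the list the median was -0.13, with 4 higher in both rounds and 7 lower in both, and per kb of island it was 0.24.

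Of the 10 regions with the most reads per kb, none passed edgeR without the block. The region at chr8:19783801-19786600, which meets no protein-coding gene, held 352 and 328 reads at 4% O2 and 335 and 386 at 20% O2. Its log2 ratio was -0.72 ± 0.21 (SE; adjusted p = 0.025 in edgeR with the block over matched lengths and the factors of all shared regions), and -0.49 ± 0.21 (edgeR adjusted p = 0.20) with scaling within those regions. The region at chr1:24612201-24613600 held 942 and 235 reads at 4% O2 and 1493 and 210 at 20% O2, so its 2 highest counts were both of round 1. The start of Cars2 and Ing1, a mitochondrial tRNA synthetase gene beside a chromatin reader gene, held 1460 and 2414 reads at 4% O2 and 851 and 2041 at 20% O2, with a log2 ratio of -0.14 ± 0.30. Pnp, Adi1, Pccb and Cfap97d2 were the other named genes among them, and their fitted log2 ratios lay between -0.31 (Pnp) and 0.17 (Pccb), none of which passed edgeR.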

How the data were processed

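Chromatin from NOS1+ N1E115 cells was immunoprecipitated and sequenced; the 4 POLR2 libraries and, side by side, the POLR2S5, POLR2S2 and H3K9ac libraries of both O2 levels were used. The submitters' processing notes name BWA, Picard, SICER, MACS2 and mm10, with no versions. The deposited island lists of the polymerase antibodies hold read counts per island, called for each library against an input; the second list of replicate 2 was identical and was counted once. The H3K9ac peak lists that the authors deposited carry −log10 p-values and were used only for presence. How duplicate or multiply mapped reads were treated was not stated in any source used here.

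Islands on chromosomes 1 to 19, X and Y that shared at least 1 bp were merged into regions, and reads were summed. The 7811 regions called in all 4 libraries, with at least 10 reads in some library, were fitted in edgeR 4.0.16 (quasi-likelihood, TMM scaling, R 4.3.3) without a block, and DESeq2 1.42.0 was an alternative. The replicate number marks a shared flow cell, per the file headers, and same-numbered libraries deviated together (correlation 0.53 over 7811 regions), so block values are given where they change a call. Genes are RefSeq's 21883 protein-coding genes of GRCm38.p6; 17491 have a strand, and both ends served as starts for the other 4392. Named regions are those that passed edgeR, the 12 highest and 12 lowest mean within-round ratios with at least 200 reads, the 10 most read regions of each level alone, the 10 largest body differences each way and the 10 densest regions. The members and lists were chosen with earlier results of these data known. Scripts were tested on simulated data. Single genes of some lists are not reported here.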

Additional observations from a re-analysis of the deposited data

How the results depend on the processing

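Reads lie only in islands called library by library, so a region's read difference mixes island length with density, and 2 libraries a level cannot pass a permutation test. Leaving out each library in turn moved the ratio of 4% O2 over 20% O2 between 0.937 and 3.91 for island reads (1.51 with all), 0.913 and 2.68 for covered bases and 1.01 and 1.29 for median reads per kb. The higher values came without the 20% O2 library of round 2, which leaves the sparse one. Regions with islands at 4% O2 alone numbered 1266 when an island had to cover 50% of the longest one, 140 when POLR2S5 and POLR2S2 also had to be absent at 20% O2, and 424 to 6435 with a library left out. Those at 20% O2 alone numbered 39 with islands of at least 100 reads, 13 with both phosphorylated forms absent, and 265 to 3130 with a library left out. edgeR calls higher at 4% O2 numbered 1 with the replicate block, 8 with the block and matched lengths, 1 in DESeq2 and 0 to 178 with a library left out, the 178 without the 20% O2 library of round 2. Calls lower numbered 1 with the replicate block, 23 with the block and matched lengths, 45 with the factors of all shared regions and 0 to 17 with a library left out. Starts at 4% O2 alone numbered 135 with equal numbers of islands and 89 to 3289 with a library left out; those at 20% O2 alone numbered 64 and 58 to 247. Bodies more covered at 4% O2 numbered 141 at 50 points, 42 with both phosphorylated forms and 1662 to 2841 with a library left out, which uses 1 round; bodies less covered numbered 10, 0 and 252 to 633. For the HIF list these counts were 4, 6 and 17 to 21, and its median log2 ratio was 0.069 per kb of island and 0.15 to 0.46 with a library left out. The cause of these movements was not tested, beyond the fewer regions or libraries that an alternative uses.

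Per kb of island 14 named regions changed sign: H1f2 (0.14), Bnip3 and Ppp2r2d (-0.092), Tnrc6c (0.059), Rars (0.015), Rere (0.10), Slit3 (0.29), 2810021J22Rik (0.19), Xpo1 and Usp34 (0.36), Fam13c (0.44), Mrpl33 (0.70), Cars2 (0.22), chr11:57959401-57964600 (0.66), Cfap97d2 (0.29) and chr1:179900801-179902800 (0.14). The last also changed sign with the replicate block (0.038). With a library left out the log2 ratio ranged from -0.032 to 0.50 for the Thra region, -3.49 to 1.84 for chr1:24612201-24613600, -1.72 to 0.32 for chr12:54714001-54714400, -0.64 to 0.11 for Pnp, -0.59 to 0.16 for chr11:57959401-57964600, -0.012 to 0.39 for Pccb, -0.63 to 0.41 for Cfap97d2 and -0.38 to 0.47 for chr1:179900801-179902800. The replicate block changed no other call. The settings with matched lengths, with both phosphorylated forms and with the factors of all shared regions were chosen after seeing the data.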
